A study of Mus musculus with 4 samples.

Results

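Zinc finger genes with the symbol Zfp and a number below 500 were examined for peaks of Pcbp1, a poly-C-binding protein, in mouse pluripotent cells. The rule took protein-coding genes of the mouse build GRCm38 (mm10) by symbol alone, without Zfp36, Zfp37, Zfp42 and Zfp143, and found 160 genes of 21887. Chromatin immunoprecipitation sequencing (ChIP-seq), which maps where a protein sits on DNA, had been done in E14 Tg2a embryonic stem cells in 2 states. Primed epiblast-like cells (EpiLC) had been kept for 48 hours with 12 ng/ml bFGF and 20 ng/ml Activin A, and naive cells (Naive) had spent 3 passages in serum-free medium with LIF, 1 uM of the MEK inhibitor PD0325901 and 3 uM of the GSK3 inhibitor CHIR99021. The EpiLC were derived from cells adapted to that naive medium, so all libraries come from the same cell line. Each state had 1 ChIP library and 1 input library, and the values below therefore carry no replicate error. No test between the states was possible.

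Many Zfp proteins belong to a large family in which a row of zinc fingers reads the DNA sequence. A frequent partner of the fingers is the KRAB domain, which recruits the corepressor Trim28 and through it the histone methyltransferase Setdb1 and HP1 proteins. In embryonic stem cells such complexes are known for silencing retrotransposons and for keeping methylation at imprinted genes. The family grew by tandem duplication, and its genes often lie side by side. The symbol does not define the protein: Zfp185, for example, encodes a LIM domain protein. Which of the 160 genes encode fingers or a KRAB domain was not checked here.

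A gene was counted as bound at its end when the summit of a peak lay within 1 kb of either annotated gene end. Such a gene-end peak was listed for 10 of the 160 Zfp genes in EpiLC (6.25%, 95% exact binomial interval 3.04 to 11.2), beside 5.61% of all protein-coding genes. In Naive it was listed for 48 (30%, 23.02 to 37.7), beside 19.3% of all. Both lists held 8 of the genes (5%, background 4.09%), EpiLC alone held 2 (1.25%, background 1.52%) and Naive alone held 40 (25%, background 15.2%). The other 110 genes were in neither set. The EpiLC share lay close to the background, so the number of Zfp genes with a peak in EpiLC was not a result about these genes. The Naive share exceeded its background with an interval that did not reach it. That interval covers counting error only, and neighbouring Zfp genes are copies of each other and not independent draws.

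The higher Naive share was not particular to the low-numbered genes. Among Zfp genes numbered 500 or more, 3.45% had a peak at an end in EpiLC (7 genes, 1.40 to 6.98) and 29.1% in Naive (59 genes, 22.9 to 35.8). Of 40 Zbtb genes, whose proteins join zinc fingers to a BTB domain, 4 had one in EpiLC (10.0%, 2.79 to 23.7) and 10 in Naive (25%, 12.7 to 41.2). When the Naive list was shortened to its 3494 strongest peaks by −log10 p, the length of the EpiLC list, 12 Zfp genes were left in Naive (7.5%), beside 5.44% of all genes.

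**Figure D1:**
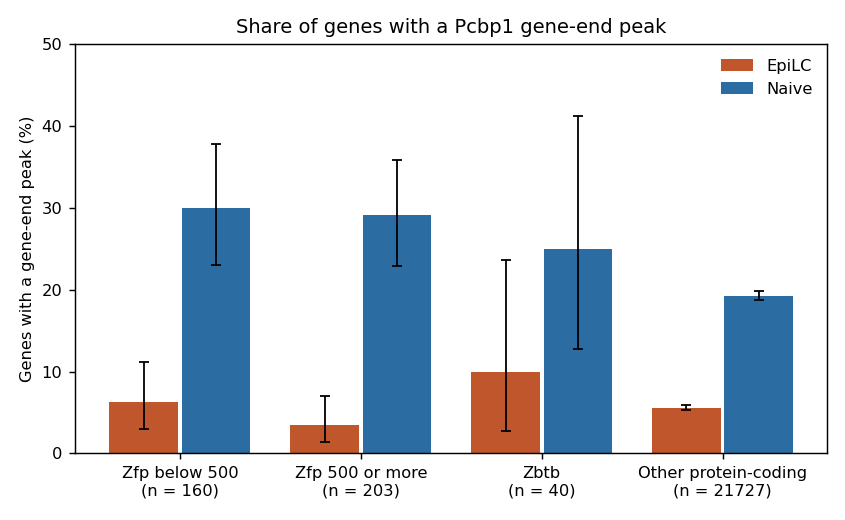
Share of genes with a Pcbp1 gene-end peak (y axis, percent) for 4 gene groups, with EpiLC left of Naive in each; bars show the share and lines the 95% exact binomial interval. Zfp genes numbered below 500 stand at 6.25% in EpiLC and 30% in Naive, and the other protein-coding genes at 5.61% in EpiLC and 19.2% in Naive.

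Peak heights at these genes were ordinary. The fold enrichment is the caller's ratio of reads at the summit to its local background, as the authors deposited it, and the highest fold was used where a gene had several peaks. The median fold at the Zfp genes was 3.12 in EpiLC (10 genes, quartiles 2.82 and 3.76) and 4.51 in Naive (48 genes, quartiles 3.80 and 5.42). At the other protein-coding genes with a gene-end peak the median was 3.34 in EpiLC (1218 genes) and 4.58 in Naive (4182 genes). The number of reads stacked at a summit, recovered from the fold and the p-value, ran from 33 to 91 at the Zfp genes in EpiLC and from 15 to 74 in Naive. The 95% Poisson intervals printed after folds below come from these pileups and cover counting error only.

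Zfp335 had the highest fold of the Zfp genes in both lists. It encodes a protein of a histone H3 methyltransferase complex that is needed for neural progenitors and T cells in the mouse (gene at chr2:164891882-164912585). Its fold was 5.76 in EpiLC (4.65 to 7.06) and 13.5 in Naive (10.6 to 16.9). These peaks ranked 257 of 3494 in EpiLC and 87 of 12132 in Naive. The summits lay 99 bp (EpiLC) and 84 bp (Naive) downstream of the nearest annotated transcript start, 15 bp apart. Both peaks lay also at an end of the noncoding gene Zfp335os, and which of the overlapping genes a peak belongs to cannot be told apart.

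The other 7 genes found in both lists had lower folds. Zfp91, whose product has been described as a ubiquitin ligase acting in NF-kB signalling, had 3.92 in EpiLC (2.97 to 5.08) and 5.79 in Naive (3.92 to 8.29), at a peak that also lay at the end of Lpxn. Zfp219, a partner of Sox9 in cartilage, had 3.88 in EpiLC (2.96 to 5.01) and 4.68 in Naive (3.09 to 6.82), with Tmem253 at the same peak. Zfp207 encodes a spindle protein that binds Bub3. It had 3.38 in EpiLC (2.51 to 4.45) and 5.59 in Naive (3.75 to 8.04). Zfp81 had 3.21 in EpiLC (2.44 to 4.14) and 5.39 in Naive (3.59 to 7.80). For all 4 genes the intervals in EpiLC and Naive overlapped.

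Zfp444 had 2.97 in EpiLC (2.07 to 4.14) and 5.595 in Naive (3.76 to 8.05). Zfp180 had 2.54 in EpiLC (1.87 to 3.38) and 5.44 in Naive (3.70 to 7.73). Zfp146, whose protein is made almost wholly of fingers, had 3.04 in EpiLC (2.20 to 4.12) and 3.31 in Naive (2.08 to 5.02). Of the 8 shared genes, Zfp335 and Zfp180 had intervals in EpiLC and Naive that did not overlap. The EpiLC and Naive peaks overlapped by at least 1 bp at 7 of the genes. At Zfp444 they did not, and the summits were 546 bp apart.

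All 8 shared genes had the higher fold in Naive, as did 89.9% of the 895 protein-coding genes with a gene-end peak in both lists. The order was not the same on another scale. At the Zfp gene-end peaks the local background was a median 1.94 times the genome-wide one in EpiLC and 1.04 times in Naive. Over all genes with gene-end peaks the medians were 1.85 in EpiLC and 1.13 in Naive. With the pileup divided by the genome-wide background instead, 3 of the 8 genes were higher in Naive (Zfp335, Zfp444 and Zfp180), and 51.7% of the 895. On that scale Zfp335 had 10.9 in EpiLC and 14.99 in Naive, and Zfp219 had 6.88 in EpiLC and 5.20 in Naive.

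**Figure D2:**
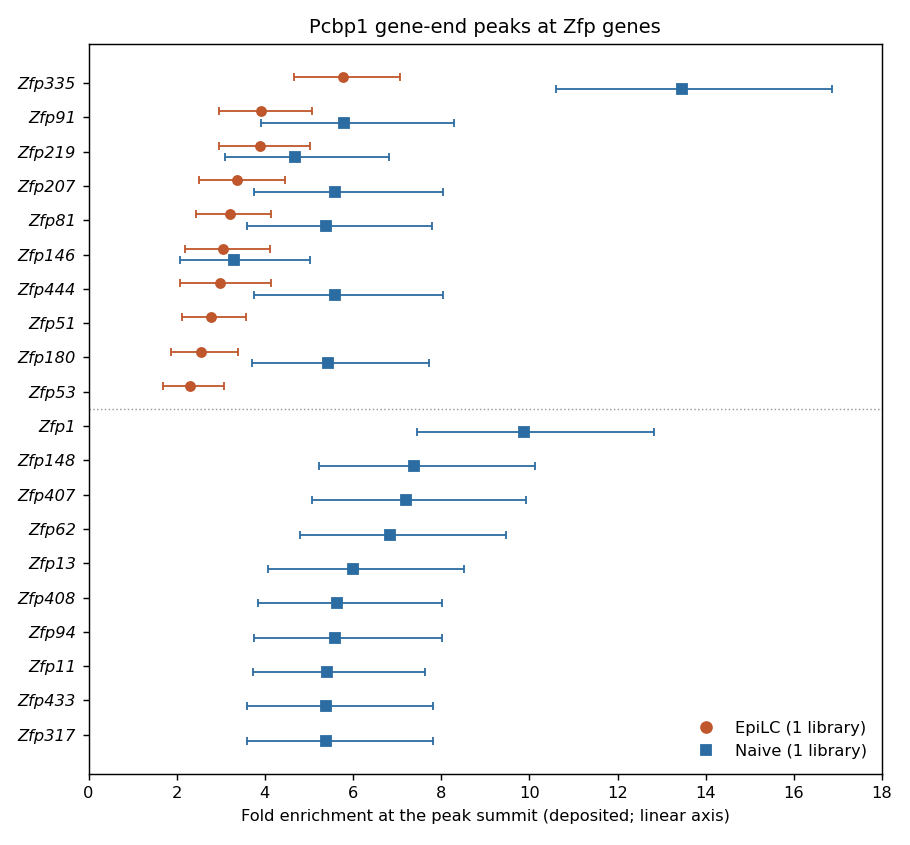
Deposited fold enrichment at the summit (x axis, linear) of the highest gene-end peak in EpiLC (circles) and Naive (squares), 1 library each, with 95% Poisson intervals for counting error. Above the dotted line are the 10 genes with an EpiLC peak, and below it the 10 highest genes found in Naive alone; Zfp335 stands apart at 5.76 in EpiLC and 13.5 in Naive.

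The 2 genes found in EpiLC alone were neighbours on chromosome 17. Zfp51 had a fold of 2.77 in EpiLC (2.11 to 3.58; pileup 57) and Zfp53 had 2.30 in EpiLC (1.69 to 3.06; pileup 45), each at its own peak, and no Naive gene-end peak was listed at either. Both folds were below the EpiLC median, and the local background there was 2.68 times (Zfp51) and 2.55 times (Zfp53) the genome-wide one.

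The 40 genes found in Naive alone had a median Naive fold of 4.28 (range 2.79 to 9.87), against 5.51 (3.31 to 13.5) for the 8 shared genes. None of their highest Naive peaks overlapped an EpiLC peak. Zfp1 was the highest, at 9.87 in Naive (7.46 to 12.8; chr8:111643469-111643831), rank 308 of 12132. Zfp148 encodes a factor that binds GC-rich promoters and had 7.37 (5.22 to 10.1). Zfp407, an activator of glucose uptake genes in mouse fat cells, had 7.19 (5.07 to 9.93). Zfp62 had 6.83 (4.79 to 9.47), Zfp13 had 5.99 (4.08 to 8.52) and Zfp408, a gene linked to retinal disease in human, had 5.63 (3.84 to 8.01) with Arhgap1 at the same peak. At the low end were Zfp68 at 2.99, Zfp296 at 2.86 and Zfp329 at 2.79. That no EpiLC peak was called at these genes does not show that Pcbp1 was missing from them.

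Of 18 Zfp genes of known role, among them regulators of pluripotency and imprinting, 2 had a peak at an end in EpiLC (11.1%, 1.38 to 34.7), namely Zfp207 and Zfp335, beside 5.61% of all genes. In Naive 7 had one (38.9%, 17.3 to 64.3), beside 19.3% of all genes. Both intervals reach the share of all genes. The 5 in Naive alone were Zfp148, Zfp384 (4.80, 3.11 to 7.10), the SUMO ligase gene Zfp451 (4.20), Zfp64 (3.44) and Zfp296 (2.86, 1.84 to 4.27), which aids reprogramming to pluripotency. Zfp281, a regulator of the exit from naive pluripotency, had its nearest EpiLC summit 308434 bp and its nearest Naive summit 11606 bp from a gene end. Zfp57 and Zfp445, both needed to keep imprints, were without one too. The nearest Naive summit at Zfp57 lay 1648 bp inside the gene at a fold of 4.12, and that at Zfp445 lay 16900 bp inside at 6.39. Zfp217, Zfp352 and Zfp326 had no summit within 50 kb in either list. The nearest Naive summits at Zfp292, Zfp106 and Zfp24 lay 2823, 3737 and 15844 bp from a gene end, and the nearest EpiLC summit at Zfp423 lay 12892 bp from one.

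Zfp462, which restrains differentiation through heterochromatin, and Zfp384 showed what the 1 kb limit leaves out. Zfp462 had 1 EpiLC summit and 4 Naive summits inside the gene, with the EpiLC one 1881 bp from a gene end (fold 3.22). At Zfp384 an EpiLC peak of 5.71 had its summit 1450 bp from the gene, while the summit of the Naive peak was 435 bp from it. The summits just inside the limit were those of Zfp335 at 934 bp in EpiLC and 919 bp in Naive, and the nearest outside it were Zfp13 at 1076 bp in EpiLC (fold 4.09) and Zfp41 at 1134 bp in Naive (3.39). Peaks within a gene and over 1 kb from its ends were found at 3 Zfp genes in EpiLC (1.88%, beside 4.01% of all genes) and 25 in Naive (15.6%, beside 11.1% of all genes). Of these, 2 in EpiLC and 18 in Naive had no gene-end peak in that list. The median gene length was 17.7 kb for the Zfp genes and 17.2 kb for all protein-coding genes. Within 50 kb of the gene body lay at least 1 summit at 32 of the 160 Zfp genes in EpiLC (20%, beside 26.3% of all protein-coding genes) and at 119 in Naive (74.4%, beside 58.1% of all).

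The gene-end peaks lay at gene starts. RefSeq promoters (build GRCm38.p6), which give strand and transcript starts, were matched for 130 of the 160 genes. Among matched genes with a peak, the summit was at the start of the gene in 9 of 9 in EpiLC and in 44 of 46 in Naive. The exceptions were Zfp329 and Zfp78, whose Naive peak was shared with Zfp28, the next gene, where the summit lay at −259 bp from the start. The start of the gene means its outer end here. At Zfp229 the Naive summit lay 22 bp from that end but at −2747 bp from the 1 annotated transcript start. The median distance to the nearest annotated start was 200 bp in EpiLC and 151 bp in Naive. Summits were downstream of that start in 8 of 9 genes in EpiLC and 34 of 46 in Naive. The 34 include Zfp329 and Zfp78, whose peaks lay at the far end of the gene, 15283 and 19751 bp from the start. The peak that Zfp78 shares with Zfp28 was thus counted as downstream for Zfp78 and upstream for Zfp28. A peak also lay at the end of another protein-coding gene for 2 of the 10 genes in EpiLC and 7 of the 48 in Naive, among them Zfp189 with the mitochondrial ribosomal protein gene Mrpl50.

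**Figure D3:**
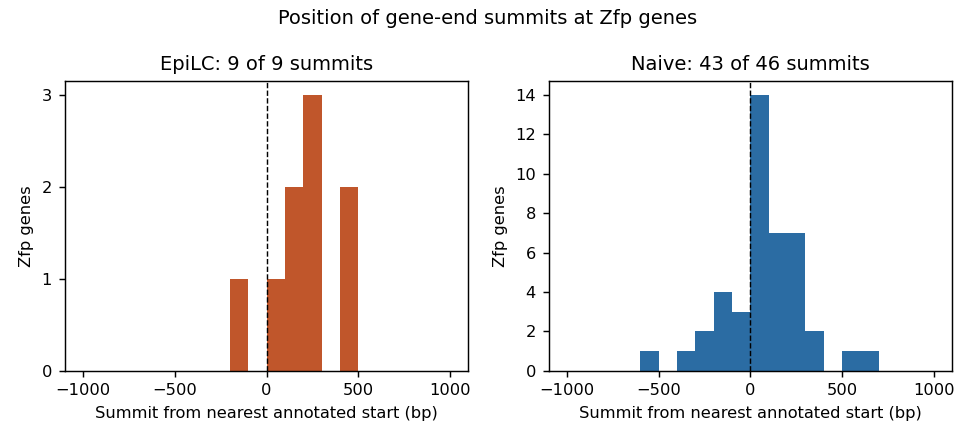
Distance of the gene-end summit from the nearest annotated transcript start (x axis, bp; positive is downstream) for Zfp genes with a promoter entry, in EpiLC (left) and Naive (right); bars count genes in 100 bp steps and the dashed line marks the start. Within 1 kb of a start lie 9 of 9 EpiLC summits and 43 of 46 Naive summits, most of them downstream of it.

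Upstream sequences of 3 genes whose summits fell before the start are shown, since the DNA under a peak can be read there. Zfp81 had summits at −136 bp (EpiLC) and −154 bp (Naive) from the start. Zfp148 had its Naive summit at −180 bp. Zfp345 had its Naive summit at −10 bp in a promoter with few CpG dinucleotides, part of which occurs in other promoters too. Each is the 250 bases before the annotated start, 5′ to 3′ on the strand of the gene, from RefSeq GRCm38.p6. Capitals mark runs of 4 or more C or of 4 or more G, the letters of a C run on either strand.
Zfp81 (chr17:33358879-33359128, minus strand): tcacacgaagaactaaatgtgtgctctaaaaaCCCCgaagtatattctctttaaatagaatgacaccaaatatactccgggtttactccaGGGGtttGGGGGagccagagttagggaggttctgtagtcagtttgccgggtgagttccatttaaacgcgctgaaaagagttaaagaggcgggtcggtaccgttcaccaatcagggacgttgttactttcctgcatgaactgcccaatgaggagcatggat
Zfp148 (chr16:33380525-33380774, plus strand): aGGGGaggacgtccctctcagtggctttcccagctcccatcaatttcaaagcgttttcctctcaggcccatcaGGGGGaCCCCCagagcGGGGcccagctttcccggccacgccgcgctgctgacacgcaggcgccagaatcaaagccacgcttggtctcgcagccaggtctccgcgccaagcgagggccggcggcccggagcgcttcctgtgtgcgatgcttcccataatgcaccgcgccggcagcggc
Zfp345 (chr2:150485064-150485313, minus strand): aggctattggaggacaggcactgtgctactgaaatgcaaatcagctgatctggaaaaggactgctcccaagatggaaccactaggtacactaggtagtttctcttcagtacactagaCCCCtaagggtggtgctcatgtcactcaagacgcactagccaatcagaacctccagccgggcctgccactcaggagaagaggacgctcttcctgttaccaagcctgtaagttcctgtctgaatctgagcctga

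Within the 300-base promoters, C runs were about as frequent in Zfp genes, with or without a Naive peak, as in all genes. These promoters end 50 bases after the start. The median summit lay 200 bp (EpiLC) and 81 bp (Naive) downstream of the nearest annotated start, so the DNA under many summits was not read. A run of CCCC on either strand was found in 115 of 130 Zfp promoters of 300 bases (88.5%), in 9 of 9 with an EpiLC peak, in 41 of 46 with a Naive peak (89.1%), and in 87.2% of 17492 promoters of all protein-coding genes. Over all genes, CCCC was found in 94.1% of promoters with a Naive gene-end peak, 85.5% of those without one and 94.9% of those with an EpiLC peak. Runs of CCCCC were found in 67 Zfp promoters (51.5%), beside 53.6% of all.

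CpG content differed from that of other bound promoters. Zfp promoters held a median of 14.5 CpG dinucleotides, against 13 in all promoters. Those with a Naive gene-end peak held a median of 15 (quartiles 10 and 20), close to the 14 (8.75 and 19.3) of Zfp promoters without one. Over all genes the medians were 21 with a Naive peak and 9 without. Among promoters with under 10 CpG, 11 of 38 Zfp genes had a Naive gene-end peak (28.9%, 15.4 to 45.9), against 340 of 7446 other genes (4.57%, 4.10 to 5.07). This range was filled unequally: 8 of the 38 Zfp promoters and 5089 of the 7446 others had under 5 CpG. At 5 to 9 CpG alone the Naive shares were 9 of 30 Zfp genes (30%, 14.7 to 49.4) and 215 of 2357 others (9.12%, 7.99 to 10.4). With 20 or more CpG the shares were 13 of 34 Zfp genes (38.2%, 22.2 to 56.4) and 32.5% of other genes. In EpiLC, 2 of the 38 Zfp genes with under 10 CpG had a peak (5.26%, 0.644 to 17.7), against 1.69% of 7446 others. The 11 Zfp genes with a Naive peak include Zfp27, with 1 CpG, Zfp260 with 5 and Zfp62 with 6. The promoters used for these counts end 50 bases after the start. Of the 11 genes, Zfp457 and Zfp345 had the Naive summit inside the counted bases, at 24 and −10 bp from the start. The summits of the others lay outside them, among them Zfp260 at 148 bp and Zfp64 at 611 bp. The shares thus describe genes by CpG near the start, and CpG under most of these summits was not counted.

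**Figure D4:**
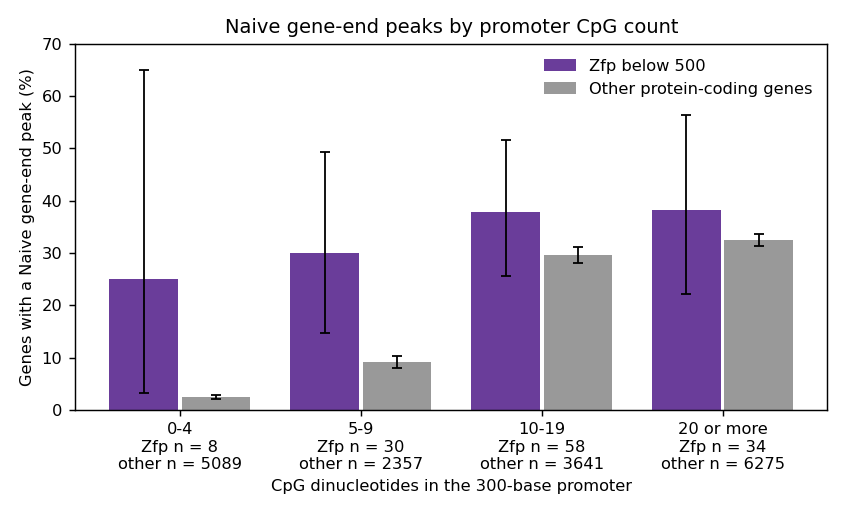
Share of genes with a Naive gene-end peak (y axis, percent) by the number of CpG dinucleotides in the 300-base promoter (x axis), for Zfp genes and for other protein-coding genes; lines are 95% exact binomial intervals. At 5 to 9 CpG the share is 30% of 30 Zfp genes and 9.12% of 2357 others, and at 20 or more it is 38.2% and 32.5%.

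A minority of the Zfp promoters held a common 10-base sequence. Of all sequences of 10 bases, ACTACATTTC on either strand was the one whose count in Zfp promoters most exceeded its share in all promoters, so its frequency here is a description of the choice. It was found in 21 of 130 Zfp promoters (16.2%), in 9 of 171 promoters of Zfp genes numbered 500 or more (5.26%) and in 0.869% of all 17492. Its first base lay at a median of −56 bases from the annotated start, before the start in 20 of the 21 genes. The longer site known for the human factor ZNF143 also begins with ACTACA. Of the 21 genes, 15 were in tandem clusters, where promoters can be copies of each other.

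Sites are shown for 5 genes with a Naive gene-end peak and then for 3 without a gene-end peak in either list, so that their letters can be compared. The 10 bases are in capitals, with 5 bases before and 15 after, 5′ to 3′ on the strand that carries them. In 18 of the 21 genes the next letters were CCA, the exceptions being Zfp189, Zfp94 and Zfp444, all with a Naive peak.
Zfp383 (chr7:29908471-29908500, plus strand): cgcggACTACATTTCccagaagcgttcgcg
Zfp84 (chr7:29768516-29768545, minus strand): agtggACTACATTTCccagaaggcggtgct
Zfp260 (chr7:30095034-30095063, minus strand): tgtgaACTACATTTCccagaagtctcaggg
Zfp189 (chr4:49521141-49521170, minus strand): agcgaACTACATTTCccggaatgcataggt
Zfp457 (chr13:67306475-67306504, plus strand): atgggACTACATTTCccacaagtcagttgg
Zfp458 (chr13:67269156-67269185, plus strand): ttgggACTACATTTCccacaagtcagtgca
Zfp111 (chr7:24208197-24208226, plus strand): ttgggACTACATTTCccagaatgctaaagt
Zfp420 (chr7:29859915-29859944, plus strand): attggACTACATTTCccagagccaccggga

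Of the 21 Zfp genes with the 10 bases, 1 was bound at an end in EpiLC (4.76%, 0.120 to 23.8) and 10 in Naive (47.6%, 25.7 to 70.2). Of the 109 without it, 8 had one in EpiLC (7.34%, 3.22 to 13.95) and 36 in Naive (33.0%, 24.3 to 42.7). The intervals overlapped in both lists, and a difference between Zfp genes with and without the sequence was not tested. The intervals cover counting error only, the genes are few, and genes in tandem clusters are not independent draws. The Naive summit lay a median of 133 bp from the middle of the sequence in the 10 genes, from 18 bp at Zfp94 to 441 bp at Zfp317. In the chromosome 13 cluster Zfp457 and Zfp458 both carried the sequence. Zfp457 had a Naive fold of 3.51 (2.13 to 5.51), and neither list had a peak at an end of Zfp458. The sequence at Zfp458 lay inside the annotated gene, over 1 kb from either end, so the gene-end window did not cover it. Inside Zfp458 and over 1 kb from its ends there were 0 summits in either list.

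Tandem clusters differed in how many of their genes had a peak. A cluster was taken as 3 or more of the Zfp genes with at most 500 kb between neighbours, which gave 14 clusters with 74 genes. Of these 74, 6 were bound at an end in EpiLC (8.11%, 3.03 to 16.8) and 23 in Naive (31.1%, 20.8 to 42.9). The shares of all protein-coding genes were 5.61% in EpiLC and 19.3% in Naive. Of the 66 genes standing alone 3 had a gene-end peak in EpiLC (4.55%, 0.947 to 12.7) and 22 in Naive (33.3%, 22.2 to 46.01). Of 20 genes in pairs 1 had one in EpiLC (5%, 0.127 to 24.9) and 3 in Naive (15%, 3.21 to 37.9). The Naive interval for pairs held the shares of all genes, of clustered genes and of single genes. Clustered and single genes thus had like shares, with overlapping intervals, while the median Naive fold was 4.17 for clustered genes and 4.83 for single ones.

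Chromosome 7 held 36 of the 160 genes and, of these, 3 of the 10 with an EpiLC peak and 14 of the 48 with a Naive peak. The EpiLC share of its Zfp genes was thus 8.33%, beside 4.73% of all genes on that chromosome. The Naive share was 38.9%, beside 19.1%. No interval was computed for these shares, and a difference was not tested. In the cluster from Zfp84 to Zfp146 (chr7:29768552-30169775) 1 of 11 genes was bound at an end in EpiLC (Zfp146) and 6 in Naive. The 6 were Zfp383 and Zfp84 at 4.53 each, Zfp260 at 4.60, Zfp27 at 3.60, Zfp146 at 3.31 and Zfp74 at 3.27, each at its own peak. This cluster also held 6 of the 21 genes with the 10-base sequence, 4 of them with a Naive peak. The cluster of the same size from Zfp180 to Zfp428 (chr7:24081877-24515682) had 1 gene with an EpiLC peak (Zfp180) and 2 with a Naive peak (Zfp180 and Zfp94, at 5.44 and 5.58). At Zfp428 the nearest summits lay 1546 bp (EpiLC, fold 4.003) and 1314 bp (Naive, 5.87) from a gene end. The small cluster of Zfp444, Zfp78 and Zfp28 had 1 of 3 genes with an EpiLC peak and all 3 with a Naive peak, the last 2 at a common peak of 4.17.

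The largest cluster, 12 genes on chromosome 13 from Zfp455 to Zfp273 (chr13:67194506-67827000), had no gene with an EpiLC gene-end peak and 1 with a Naive one (Zfp457). The span held 0 EpiLC and 8 Naive summits, and 3 of the 8 other protein-coding genes inside it had a Naive gene-end peak, so that stretch was not without calls. Median CpG counts were 7.5 in its promoters and 12 in those of the Zfp84 to Zfp146 cluster. Clusters with higher medians had Zfp genes with a Naive peak (Zfp26 to Zfp266, median 21, 2 of 3 genes) or none (Zfp185 to Zfp92, 20, and Zfp398 to Zfp467, 19.5). Whether CpG content goes with the number of genes bound in a cluster was not tested. On chromosome 17 the cluster from Zfp160 to Zfp229 was the one with more genes in EpiLC (Zfp51 and Zfp53) than in Naive (Zfp229, fold 4.20), and the cluster around Zfp81 had that gene in both lists. In the clusters from Zfp398 to Zfp467 on chromosome 6, Zfp397 to Zfp24 on chromosome 18 and Zfp185 to Zfp92 on chromosome X none of the Zfp genes had a peak at an end, while 1 other gene in each of the spans on chromosomes 6 and X had one in Naive. Other cluster genes found in Naive alone were Zfp345 (3.19) on chromosome 2, Zfp26 (4.49) and Zfp426 (3.22) on chromosome 9, Zfp213 (3.99) next to Zfp13 on chromosome 17, Zfp113 (3.83) next to Zfp68 on chromosome 5, and Zfp110 (4.13) next to Zfp329 on chromosome 7.

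**Figure D5:**
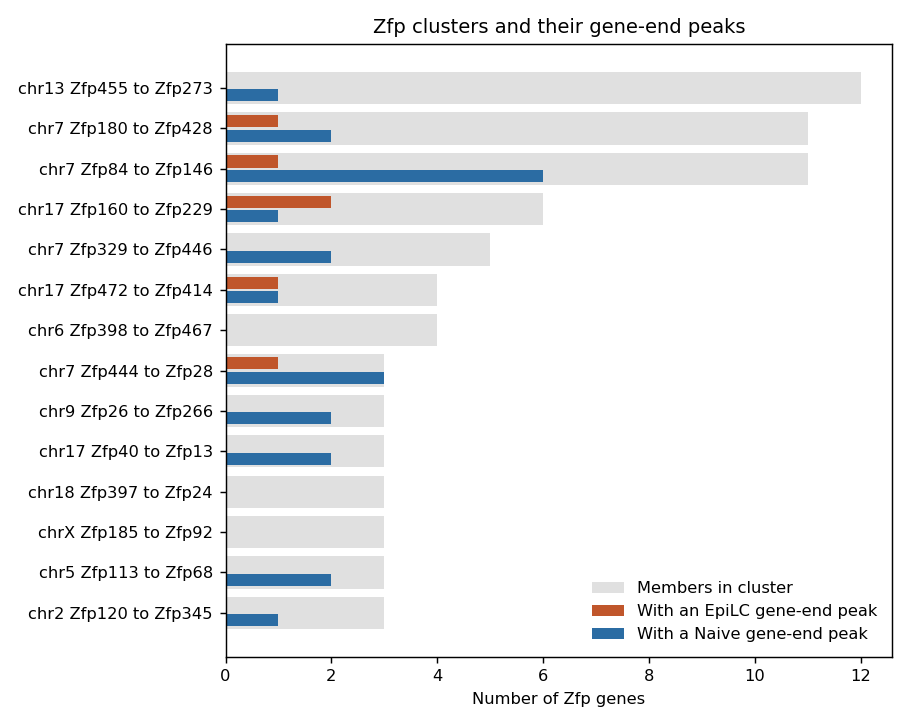
Number of Zfp genes (x axis) in each of the 14 clusters of 3 or more (grey), with an EpiLC gene-end peak (upper bar) and with a Naive gene-end peak (lower bar); clusters are named by chromosome and first and last gene. The clusters on chromosome 7 from Zfp84 to Zfp146 and on chromosome 13 from Zfp455 to Zfp273 are of similar size, with 6 and 1 genes in Naive.

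Copies within clusters can share reads, and the sources used here do not say how reads with several matches were treated. Among RefSeq promoters, 6 of the 130 Zfp promoters had any stretch of 50 bases that also occurred in another gene's promoter elsewhere. The stretches covered over 50% of the promoter at Zfp97 (96.8%), Zfp433 (82.9%) and Zfp345 (52.99%), and each of these had a Naive gene-end peak, at 4.86, 5.40 and 3.19. Those 3 peaks are uncertain as to their gene. Of the 11 Zfp genes with a CpG-poor promoter and a Naive gene-end peak, 9 held no such stretch in the promoter.

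The genes of the corepressor machinery that KRAB zinc finger proteins recruit were examined in the same way. Of 25 such genes, 2 had one in EpiLC and 8 in Naive, with 1 in both lists, 1 in EpiLC alone and 7 in Naive alone. Trim28, Setdb1 and Atf7ip, the core of the complex, had none in either list. The gene in both was Cbx3, which encodes an HP1 protein, at 3.15 in EpiLC (2.39 to 4.08) and 5.79 in Naive (3.92 to 8.29), at a peak shared with Hnrnpa2b1. The methyltransferase gene Dnmt3b had 3.39 in EpiLC (2.46 to 4.57) and no Naive gene-end peak. In Naive alone the highest were the deacetylase gene Hdac2 at 8.79 (6.42 to 11.8), the HP1 gene Cbx5 at 6.52 (4.53 to 9.13), at a peak shared with Hnrnpa1, and Uhrf1, which guides maintenance methylation, at 5.70 (3.91 to 8.06). The shares were 8% in EpiLC and 32% in Naive, beside 5.61% and 19.3% of all genes. No interval was computed for these shares of 25 genes, and a difference from all genes was not tested.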

How the data were processed

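Pcbp1 ChIP-seq peaks came from 1 ChIP library per state, EpiLC and Naive. MACS2, Picard, Bowtie2 and fastp are named in the submitters' processing notes, with the build GRCm38 (mm10). The sources used here give neither the caller's control nor the library totals. The fold enrichment (a ratio at the summit), the −log10 p-value and −log10 q-value and the summit offset are the authors' deposited values. The deposited integer score, read as a multiple of the −log10 q, was not used for results. The lists held 3494 EpiLC and 12132 Naive peaks.

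The pileup was solved as a whole number from fold and p, with fold = (pileup + 1) / (background + 1) and a Poisson p. It matched 100% of peaks within 0.001, and the code was tested on simulated data. The lowest background, 7.43 in EpiLC and 4.004 in Naive, was taken as genome-wide. Genes and promoters came from RefSeq GRCm38.p6. 1 promoter per gene was used, the one nearest the outer gene end, from 250 bases before to 50 after the start.

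The genes, lists and comparisons were chosen with earlier results of these data known, and the 10-base sequence after seeing the promoters. Genes named are the 10 highest in each list, those in EpiLC alone, cluster genes with a peak, and 18 of known role. Genes outside these classes, named for the window limit, the 10-base sequence or shared promoter stretches, were chosen after their values were seen. Shares are given with exact binomial intervals and no test. The planned grouping by fingers and KRAB box was not run, since no protein sequences were used here. The alternatives tried were other windows, thresholds, list lengths, cluster gaps and overlaps. Values were computed with scipy 1.17.1, pandas 2.3.3 and numpy 2.4.6 under Python 3.11.15, and plots drawn with matplotlib 3.10.9.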

Additional observations from a re-analysis of the deposited data

How the results depend on the processing

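Of 39 counts recomputed under an alternative, 24 stayed within 1.5 times the reported count and 15 did not. Within 500 bp of gene ends 5 genes were in both lists, and within 3000 bp 4 were in EpiLC alone. At a −log10 q of at least 5, 5 genes were in both lists, and 3 clustered genes had an EpiLC peak and 15 a Naive peak. Under that limit 4.38% of Zfp genes were left in EpiLC and 23.1% in Naive, beside 4.59% and 15.4% of all genes. Within 500 bp the Naive shares were 27.5% of Zfp genes and 16.4% of all. Within 3000 bp they were 38.1% and 23.8%. In EpiLC they were 4.38% and 4.27% within 500 bp, and 9.38% and 7.53% within 3000 bp. At a fold of at least 5, 1 gene was left in EpiLC, 17 in Naive, 1 in both, 0 in EpiLC alone and 16 in Naive alone. Under that limit 0.676% of all genes were left in EpiLC and 6.83% in Naive. With the Naive list shortened to the EpiLC length, 12 genes were in Naive, 5 in both, 5 in EpiLC alone and 7 in Naive alone. The 12 are 7.5% of the Zfp genes, beside 5.44% of all genes. By construction, higher thresholds and a shorter list hold fewer peaks. Cluster gaps of 250 kb or 1 Mb, any overlap with the window and an overlap of 50% of the shorter peak moved no count past 1.5 times. With the genome-wide background in place of the local one, an alternative added after seeing the data, 3 of the 8 shared genes were higher in Naive. No paired analysis was possible because each group had 1 library. The lowest called pileup was 23 in EpiLC and 14 in Naive, and the genome-wide background was 1.86 times as high in EpiLC.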

Other observations

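The 10-base sequence found in Zfp promoters was also examined in other genes. Of 131 other protein-coding genes with it in the promoter, 16 were bound at an end in EpiLC (12.2%, 95% exact binomial interval 7.15 to 19.1) and 73 in Naive (55.7%, 46.8 to 64.4). Of the 17231 other genes without it, 5.53% had one in EpiLC (5.19 to 5.88) and 19.6% in Naive (19.04 to 20.2). Of the 9 Zfp genes numbered 500 or more that carry it, 0 were bound at an end in EpiLC (exact interval up to 33.6%) and 4 in Naive. The genes with and without the sequence were not matched on CpG content.

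Zfp57, which has no gene-end peak, had the most Naive summits within 50 kb of its body among the Zfp genes, with 2 in EpiLC and 10 in Naive. It was singled out after its values were seen.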
